A study of Mus musculus with 11 samples.

Results

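Collagens are the family of secreted matrix proteins described here, across 11 regions of the mouse mammary gland. Members were the probes whose target name is Col, a number, the letter a and a number, which gave 44 of the 19965 endogenous probes, 1 probe per gene. The regions come from naive mice with a ZSGreen lineage reporter of periostin, which marks cells that express or once expressed this stromal matrix gene. Glands of 3 mice, fixed in paraformaldehyde and frozen, were probed with the GeoMx mouse Whole Transcriptome Atlas, in which ultraviolet light releases probe barcodes from a chosen area for sequencing. Regions were picked by staining, and the ZSGreen-positive part of each was collected, so every region of both groups holds reporter-positive cells of the same kind of mouse. The 6 Pdpn-adjacent regions (2, 3, 4, 7, 8 and 11) lay by podoplanin-stained lymphatic vessels, and the 5 SMA-adjacent regions (1, 5, 6, 9 and 10) by ducts and blood vessels stained for smooth muscle actin. Strain, age, the reporter construct and the mouse of each region are not given here. With more regions than mice in each group, some regions come from the same animal, so p-values that treat regions as independent may be too small, or too large if 1 animal supplied both groups.

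Collagen chains wind around one another into a helix in the cell and assemble outside it. The fibrillar types form the cables of connective tissue, the type IV chains form the sheet under epithelium and around vessels, and smaller classes link, decorate or limit these structures. In the mammary gland, fibroblasts are the main source of fibrillar collagen, while endothelial, smooth muscle, epithelial and fat cells also make type IV collagen.

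Depth differed between the groups. Totals ran from 760761 to 3086323 counts in SMA-adjacent regions, and Pdpn-adjacent regions 4, 7 and 8 held 2271664, 225875 and 301401. Regions 2, 3 and 11 held 22757, 81760 and 30316, and 41, 7 and 31 of the 44 collagen probes stood there at the table's lowest value, a count of 1. Levels below are in CPM, counts divided by the scaled library size, and group values are means ± SD over regions. Background is the geometric mean of 210 negative-control probes, and it lay between 26.0 and 39.4 CPM in all 11 regions. A probe near those values shows no signal over background, and levels of different probes are not compared as amounts of RNA, because each gene has 1 probe of unknown efficiency.

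The labelled cell types were checked against marker genes, as the mean count of a list over background. The 7 measured fibroblast markers stood at 2.81 to 7.35 in SMA-adjacent and 0.952 to 5.38 in Pdpn-adjacent regions. Adipocyte markers (6) stood at 18.2 to 50.9 and 0.952 to 39.2, smooth muscle markers (6) at 5.32 to 31.9 and 1.13 to 4.41, and blood endothelial markers (6) at 2.05 to 4.66 and 0.952 to 3.36. The 7 lymphatic endothelial markers, Prox1 and Lyve1 among them, stood at 1.43 to 1.71 and 0.952 to 1.73, and 0 of them had a group median of 2 times background or more. Fat cell genes thus stood well above background in regions segmented for the reporter. In such mixtures, fewer cells of a type and less RNA per cell cannot be told apart.

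Of the 44 collagens, 13 had a median of at least 2 times background in either group, against 19% of all endogenous probes. They were 6 of 11 fibrillar genes (Col1a1, Col1a2, Col3a1, Col5a1, Col5a2 and Col5a3), 2 of 6 basement membrane genes (Col4a1 and Col4a2), 3 of 6 beaded filament genes (Col6a1, Col6a2 and Col6a3) and both multiplexins (Col15a1 and Col18a1). None of the 3 network, 9 fibril-associated, 4 transmembrane or 2 unclassed genes reached it, nor did the anchoring fibril gene Col7a1. By a floor at the mean plus 2 SDs of the log2 negative probes, exceeded in 50% of a group's regions or more, 13 members were detected in SMA-adjacent and 8 in Pdpn-adjacent regions. Of all 19965 endogenous probes, 2708 and 1355 were, so detection fell for probes in general as well. Col6a1 and Col6a3 were among the 8 only through region 11, from 3 and 2 counts against a floor of 1.98 counts.

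**Figure D1:**
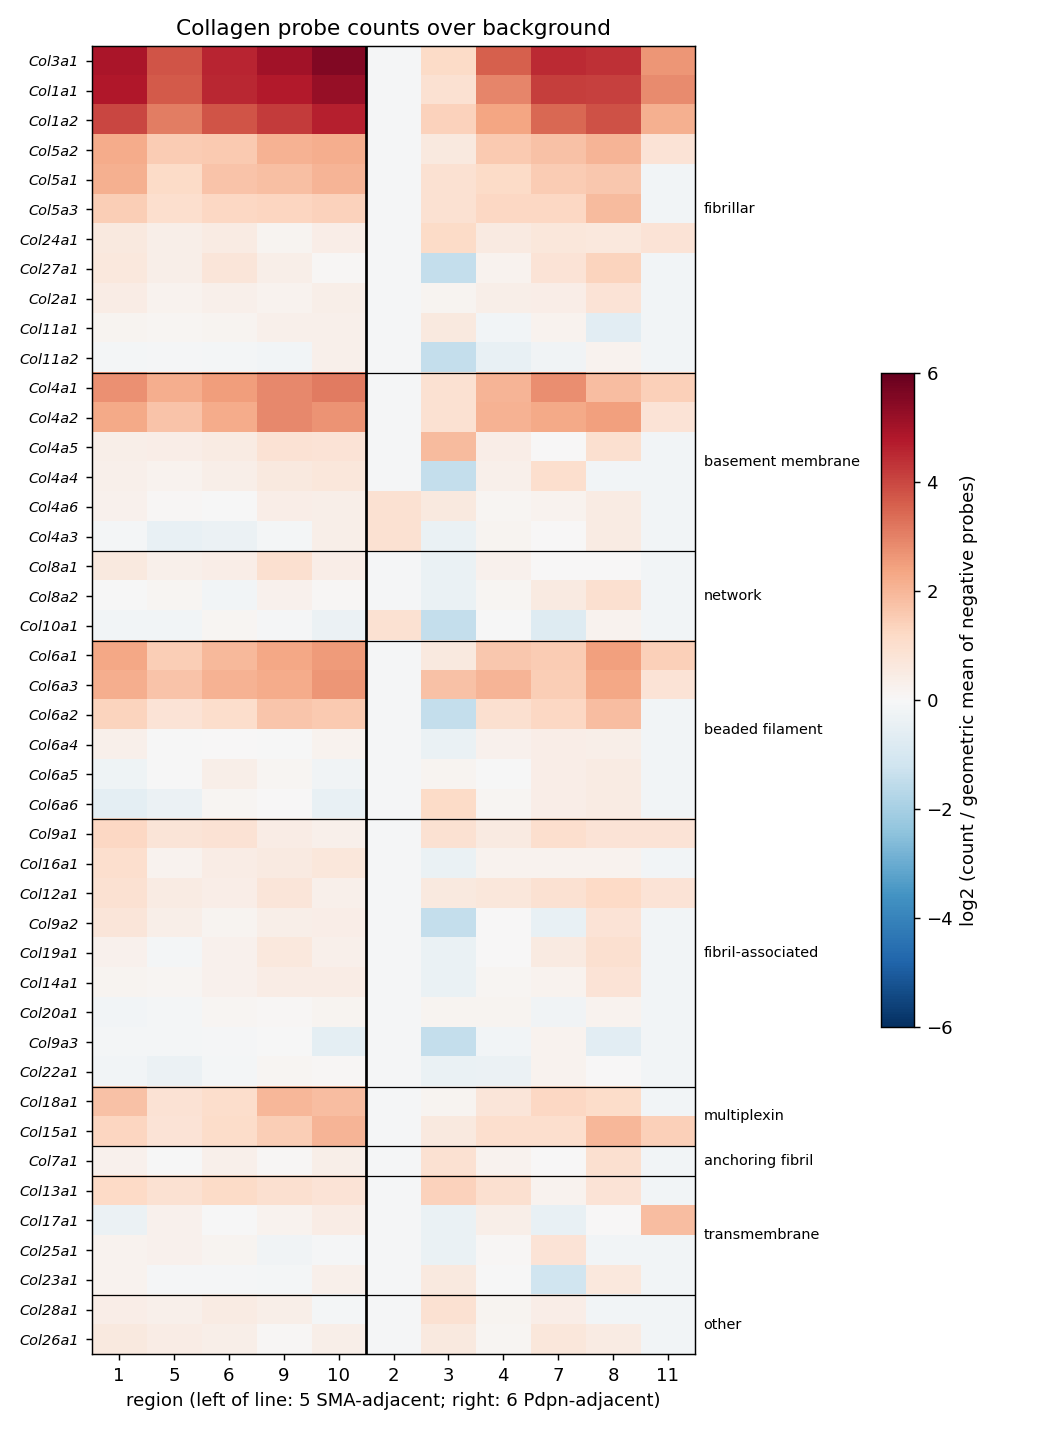
Collagen probe counts over background, as log2 of the count divided by the geometric mean of the negative probes, for 44 genes (rows, by class) in 11 regions (columns, SMA-adjacent left of the line). Col3a1, Col1a1 and Col1a2 form the darkest rows, region 2 is near 0 for 41 of the 44 genes, and most rows outside the fibrillar, type IV, type VI and multiplexin genes are pale in every region.

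The 3 genes of the major fibrillar collagens gave a large part of the family's counts in deep regions. Col1a1 and Col1a2 encode the chains of type I collagen, the main tensile fibre, and Col3a1 encodes type III collagen, which joins type I in the fine fibres of soft tissue. Together they held 35.9% to 55.9% of all collagen counts in SMA-adjacent regions. In Pdpn-adjacent regions 4, 7 and 8 they held 27.9%, 41.9% and 38.0%. Background was not subtracted from these shares, so the members near background add to the total. Among all 19965 endogenous probes, Col3a1 ranked 13 to 29 by count in SMA-adjacent regions and 36, 40 and 44 in regions 8, 7 and 4.

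The sequence just upstream of a gene is shown for both of these genes that have an entry in the RefSeq promoter table (GRCm38.p6), because they were high and low in the same regions. Each run is the 250 bases before the listed start, 5′ to 3′ on the gene's strand, with motif matches on either strand in capitals. The motifs searched were the CCAAT box (CCAAT), the core of a GC box (GGGCGG) and a TATA box (TATAAA), and their matches do not overlap here.
Col1a2 (chr6:4505368-4505617, plus strand): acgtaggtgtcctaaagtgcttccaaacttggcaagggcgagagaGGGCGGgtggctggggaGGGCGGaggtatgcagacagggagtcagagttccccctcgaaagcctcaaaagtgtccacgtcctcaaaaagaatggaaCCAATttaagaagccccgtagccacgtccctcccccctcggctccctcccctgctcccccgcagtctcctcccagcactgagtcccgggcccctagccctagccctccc
Col3a1 (chr1:45311288-45311537, plus strand): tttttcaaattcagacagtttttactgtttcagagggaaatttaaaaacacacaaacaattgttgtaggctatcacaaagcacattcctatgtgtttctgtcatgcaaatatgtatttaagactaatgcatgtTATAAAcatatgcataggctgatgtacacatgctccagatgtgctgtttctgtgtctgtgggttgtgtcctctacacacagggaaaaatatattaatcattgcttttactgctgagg
Col1a2 had 1 CCAAT box and 2 GC box matches. Col3a1 had 1 TATA box match, which begins at base 134 of the 250, and none of the others in this window. Of the 44 members, 35 had an entry, with 38 windows in all. The GC box stood in 22 of the 38 (57.9%), against 32.7% of the table's 32851 windows. The CCAAT box stood in 13 (34.2% against 33.8%) and the TATA box in 5 (13.2% against 12.4%). These are letter matches and were not tested as binding sites.

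Col1a1 was present at 819, 434, 729, 816 and 1102 CPM in SMA-adjacent regions 1, 5, 6, 9 and 10. In Pdpn-adjacent regions the lowest, median and highest values were 37.5, 263 and 568 CPM. Region 10 was highest and region 5 lowest beside SMA structures, and regions 7 and 8 overlapped that range from the Pdpn side. Col3a1 was present at 889, 461, 761, 968 and 1351 CPM in the same SMA-adjacent regions. Its Pdpn-adjacent values had a lowest, median and highest of 37.5, 319 and 717 CPM. Col1a2 stood at 472, 283, 441, 555 and 750.0 CPM, against 37.5, 171 and 365 CPM. For all 3 genes, 4 of 6 Pdpn-adjacent regions (2, 3, 4 and 11) lay below every SMA-adjacent region, and 0 lay above.

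**Figure D2:**
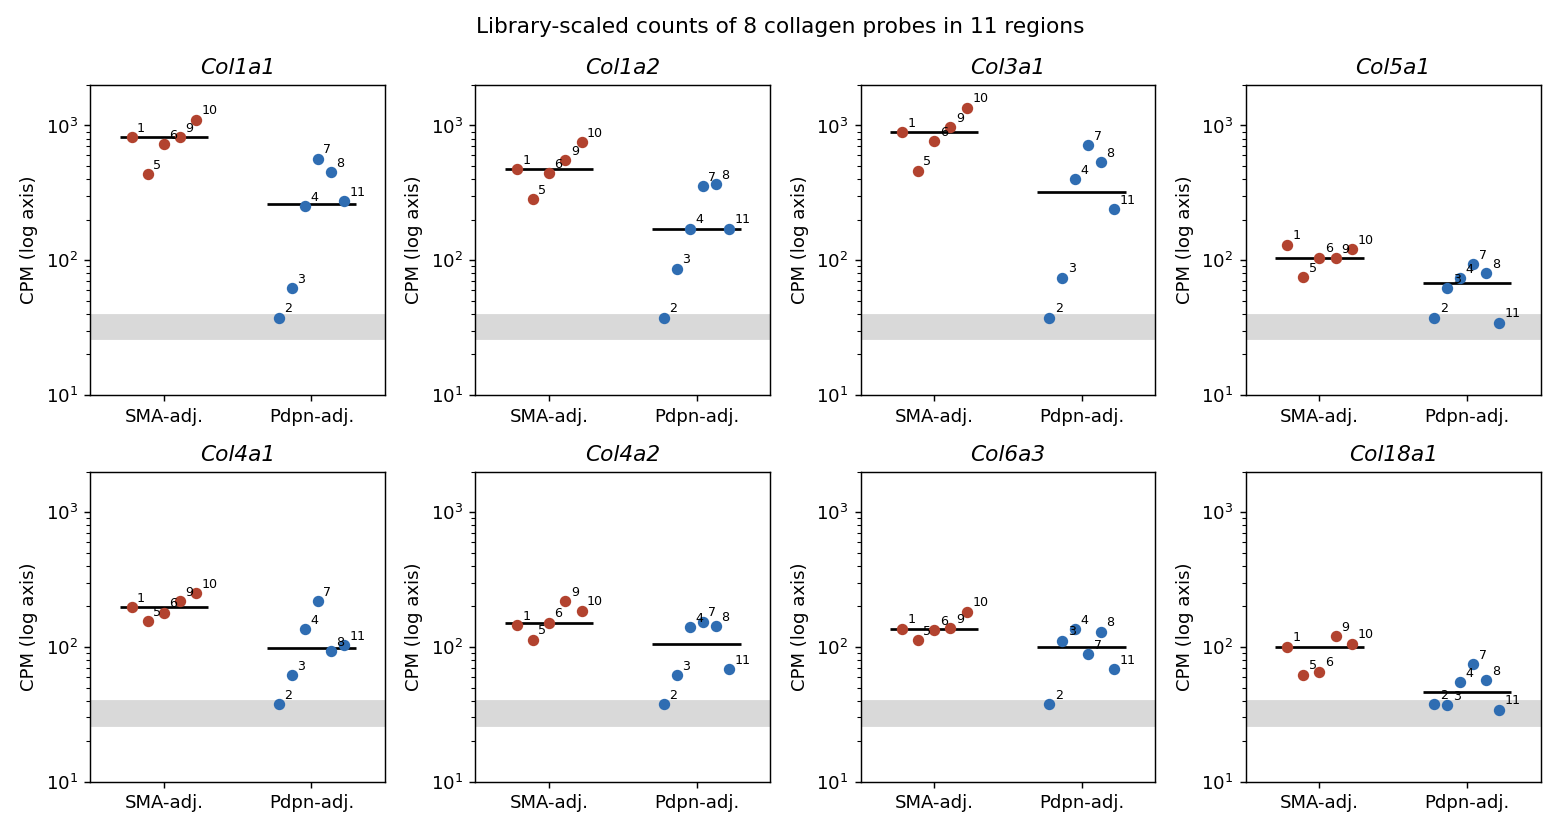
CPM (log axis) of 8 collagen probes in each region, numbered, with SMA-adjacent regions in red, Pdpn-adjacent in blue, and black lines at the group medians; the grey band is the range of the negative probes. For Col1a1, regions 2, 3, 4 and 11 lie below all 5 SMA-adjacent regions, whereas regions 7 and 8 lie within their range.

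The lower values in Pdpn-adjacent regions did not pass the test. Col1a1 averaged 274 ± 209 CPM in Pdpn-adjacent (n = 6) and 780.0 ± 239 CPM in SMA-adjacent regions (n = 5), which gave -1.40 ± 0.60 SE as log2 fold change, Pdpn-adjacent minus SMA-adjacent (edgeR adjusted p = 0.764; exact two-sided permutation p = 0.0152, adjusted p = 0.610 over 19935 probes). Col3a1 averaged 334 ± 267 against 886 ± 324 CPM, or -1.29 ± 0.65 SE on the log2 scale (edgeR adjusted p = 0.853). Col1a2 averaged 198 ± 136 against 500.1 ± 171 CPM, with -1.19 ± 0.49 SE (edgeR adjusted p = 0.760). Without the shallow regions 2, 3 and 11 the log2 fold changes were -0.90 for Col1a1, -0.70 for Col3a1 and -0.78 for Col1a2, with edgeR adjusted p-values of 1.00. With limma-voom, Col3a1 stood at -2.06. Shared mice can make these p-values too small. On GRCm38.p6 the probes map to chromosome 11, 94937957 to 94937994 (Col1a1), chromosome 6, 4522452 to 4522487 (Col1a2) and chromosome 1, 45321516 to 45321553 (Col3a1), inside the annotated gene in all 44 cases; the exon or untranslated part is not given in the files.

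Counting intervals of the shallow regions were wide. In region 3 Col1a1 had 5 counts, whose exact 95% Poisson interval ends at 144 CPM, below the 252 CPM of region 4. In region 2 it had 1 count, whose interval ends at 209 CPM, and in region 11 it had 8 counts, with an interval of 118 to 539.8 CPM. At best these intervals cover counting error, as they take each deposited count as sampled reads. The 1 count of region 2 is the table's lowest value and may stand for no read, so its interval has little meaning. Region 2 was near background for most lists, with fibroblast markers at 0.952 and adipocyte markers at 0.952 times background. Region 3 had fibroblast markers at 1.72 and 5 skeletal muscle markers at 118 times background. Region 7, the second in skeletal muscle markers (44.4), had the highest Pdpn-adjacent Col1a1 and Col3a1. The part of muscle in the collagen values was not tested.

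Among SMA-adjacent regions the same 3 genes varied most in CPM of the 13 detected members, together with Col18a1 and Col15a1. The coefficient of variation over 5 regions was 36.5% for Col3a1, 34.2% for Col1a2 and 30.7% for Col1a1, against 17.7% for Col5a2 and 6.72% for Col5a3. Background left in CPM lowers this coefficient, most for weak probes. With background subtracted, Col18a1 and Col15a1 averaged 59.7 ± 27.5 and 49.9 ± 23.9 CPM, against 855 ± 325 CPM for Col3a1. Relative to their means, Col18a1 and Col15a1 then varied more than the 3 fibrillar genes. Region 10, the highest for those 3 genes, had fibroblast markers at 7.35, adipocyte markers at 50.9 and blood endothelial markers at 4.66 times background. Region 5, the lowest, had them at 2.81, 18.2 and 2.05. The part of these cell types in the collagen values was not tested.

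Ratios between chains were compared within a region, where library scaling cancels but background does not. The ratio of the Col1a2 to the Col1a1 count lay between 0.576 (region 1) and 0.681 (region 10) in SMA-adjacent regions, and was 0.681, 0.623 and 0.815 in regions 4, 7 and 8. The ratio of Col3a1 to Col1a1 was 1.04 to 1.23 in SMA-adjacent regions and 1.26 and 1.19 in regions 7 and 8. In region 4 it was 1.58, with an exact 95% counting interval of 1.42 to 1.76 that lies above the interval of SMA-adjacent region 10 (1.14 to 1.31), the highest of those 5. After background was subtracted from both counts, an alternative chosen after seeing the data, region 4 stood at 1.67 and region 10 at 1.23. This is a difference of 1 region, with no replicate. The ratio of Col4a2 to Col4a1 ranged from 0.726 in region 5 to 0.998 in region 9, and was 1.03 in region 4, 0.702 in region 7 and 1.54 in region 8, the last with an interval of 0.932 to 2.57. Ratios of Col6a2 to Col6a1 and of Col5a2 to Col5a1 were 0.504 to 0.633 and 0.891 to 1.30 in SMA-adjacent regions. In region 4 they were 0.632 and 1.34. With background subtracted they were 0.380 to 0.537 and 0.843 to 1.54 in SMA-adjacent regions, and 0.458 and 1.62 in region 4. Col4a2 over Col4a1 in region 8 then stood at 1.74. In regions 2, 3 and 11 the probes held under 20 counts, and no ratio is given.

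**Figure D3:**
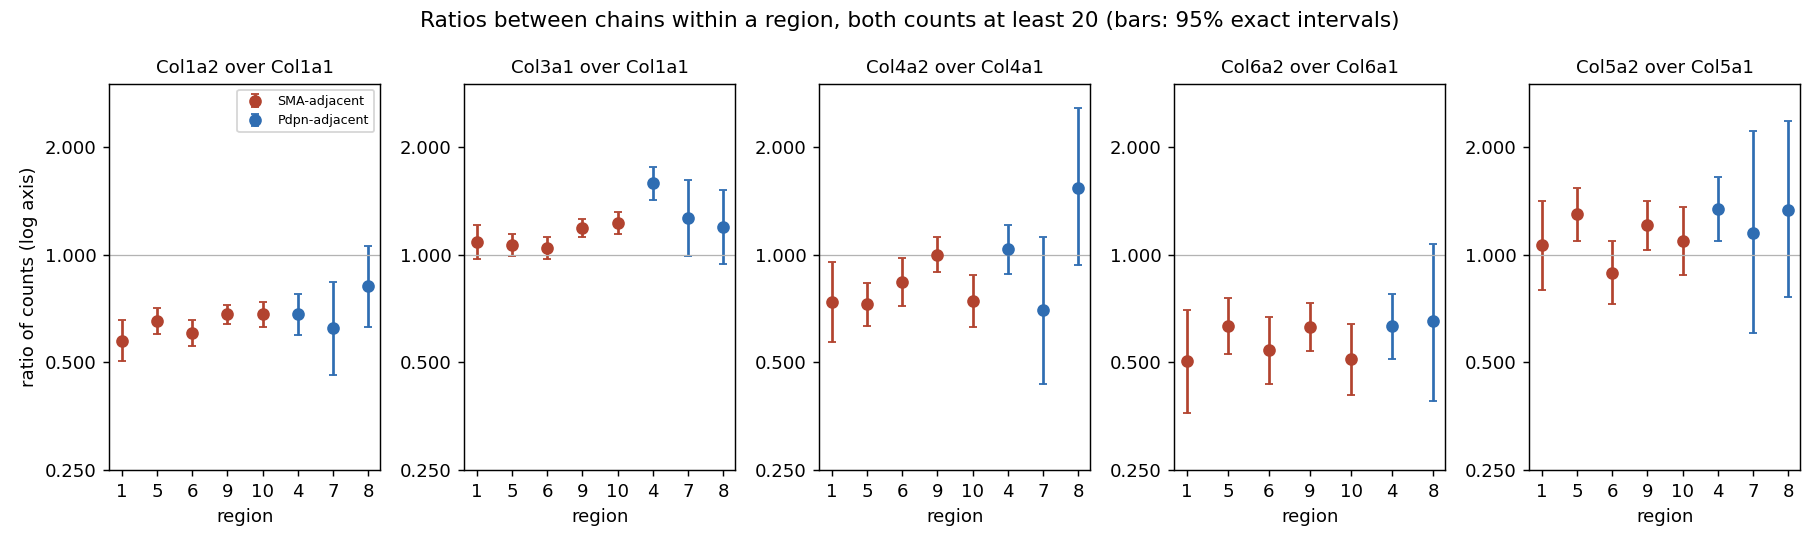
Ratio of the counts of paired collagen probes within a region (log axis), for regions with at least 20 counts of both, with 95% exact counting intervals; SMA-adjacent in red, Pdpn-adjacent in blue. Region 4 stands at 1.58 for Col3a1 over Col1a1, above the other 7 regions drawn. Region 8 stands highest for Col1a2 over Col1a1 (0.815) and Col4a2 over Col4a1 (1.54). The groups overlap for every ratio.

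Type V collagen, which nucleates type I fibres and limits their width, was detected through its 3 chains. Col5a1 stood at 2.20 to 4.38 times background in SMA-adjacent and 0.889 to 3.07 in Pdpn-adjacent regions. It averaged 63.3 ± 23.6 CPM in Pdpn-adjacent (n = 6) and 107 ± 21.2 CPM in SMA-adjacent regions (n = 5; log2 fold change -0.50 ± 0.22 SE, edgeR adjusted p = 0.765). Col5a2 and Col5a3 had log2 fold changes of -0.33 ± 0.23 and 0.05 ± 0.17 SE, neither past the threshold (edgeR adjusted p = 0.944 and 1.00), and the groups overlapped for all 3 genes. Col5a2 stood at -0.18 without regions 2, 3 and 11. Without regions 4 and 8, Col5a3 stood at -0.21. The other fibrillar genes, Col2a1, Col11a1, Col11a2, Col24a1 and Col27a1, had medians of 0.933 to 1.32 times background in SMA-adjacent and 0.881 to 1.57 in Pdpn-adjacent regions. Col2a1 and the type XI chains are best known from cartilage.

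Of the basement membrane chains, Col4a1 and Col4a2, which pair in the ubiquitous type IV network, were detected. Their genes lie head to head on chromosome 8, with RefSeq starts 21 bases apart on GRCm38.p6. Col4a1 was present at 196, 156, 180.1, 219 and 251 CPM in SMA-adjacent regions 1, 5, 6, 9 and 10, against a lowest, median and highest of 37.5, 97.9 and 219 CPM in Pdpn-adjacent ones. All Pdpn-adjacent regions but region 7 lay below every SMA-adjacent region. On the log2 scale the difference was -0.68 ± 0.31 SE (edgeR adjusted p = 0.794), and -0.98 without region 7 (edgeR adjusted p = 0.504). Col4a2 averaged 101 ± 50.4 CPM in Pdpn-adjacent (n = 6) and 163 ± 40.5 CPM in SMA-adjacent regions (n = 5; log2 fold change -0.41 ± 0.28 SE, edgeR adjusted p = 0.946), with regions 4, 7 and 8 inside the SMA-adjacent range, and its log2 fold change was -0.17 without regions 2, 3 and 11. Mice shared between regions can make both p-values too small.

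The tissue-restricted type IV chains were near background. Col4a3, Col4a4, Col4a5 and Col4a6 had SMA-adjacent medians of 0.915, 1.29, 1.40 and 1.19 times background, and Pdpn-adjacent medians of 1.07, 0.923, 1.16 and 1.28. Their log2 fold changes were 0.39, -0.09, -0.03 and 0.03, with edgeR adjusted p-values of 0.760 or more. The signs for Col4a4, Col4a5 and Col4a6 changed under other settings: without regions 4 and 8 the first 2 stood at 0.17 and 0.21, and without regions 2, 3 and 11 Col4a6 stood at -0.01.

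The beaded filaments of type VI collagen, which tie cells and fibres together, were seen through the classical chains. Col6a1, Col6a2 and Col6a3 averaged 138 ± 28.6, 76.9 ± 13.9 and 141 ± 25.7 CPM in SMA-adjacent regions (n = 5). In Pdpn-adjacent regions they averaged 88.0 ± 38.7, 52.8 ± 29.8 and 95.1 ± 37.8 CPM (n = 6). None differed past the threshold (log2 fold changes -0.45 ± 0.26, -0.20 ± 0.22 and -0.32 ± 0.25 SE; edgeR adjusted p = 0.920, 1.00 and 0.961), and the groups overlapped. Without regions 2, 3 and 11 the log2 fold changes were -0.29, -0.06 and -0.21, and without regions 4 and 8 -0.84, -0.56 and -0.69. Leaving out 1 region moved Col6a2 to -0.11 (region 3), -0.35 (region 8) and -0.10 (region 9), and Col6a3 to -0.21 (region 10). Col6a4, Col6a5 and Col6a6 had medians between 0.792 and 1.19 times background in the groups. The limit that shared mice set on p-values holds here too.

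The multiplexins sit at basement membranes and release antiangiogenic fragments, endostatin in the case of Col18a1. Col18a1 was present at 100.1, 62.0, 65.5, 120.2 and 106 CPM in SMA-adjacent regions 1, 5, 6, 9 and 10. In Pdpn-adjacent regions it had a lowest, median and highest of 34.2, 46.1 and 74.5 CPM, and only region 7 reached the SMA-adjacent range. It had the smallest edgeR p of the family, at -0.69 ± 0.23 SE on the log2 scale, and did not pass (edgeR adjusted p = 0.602; exact permutation p = 0.0195, adjusted p = 0.610). The blood endothelial and smooth muscle marker lists stood at 2.05 to 4.66 and 5.32 to 31.9 times background in SMA-adjacent regions. In Pdpn-adjacent regions they stood at 0.952 to 3.36 and 1.13 to 4.41. The part of these cell types in the Col18a1 values was not tested. Col15a1 averaged 70.5 ± 27.1 CPM in Pdpn-adjacent (n = 6) and 80.8 ± 22.3 CPM in SMA-adjacent regions (n = 5; log2 fold change -0.15 ± 0.22 SE, edgeR adjusted p = 1.00). Its sign turned with limma-voom, to 0.06. Shared mice can make both p-values too small.

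Fibril-associated collagens coat the surface of fibres, and none reached 2 times background in a group median. Col12a1 and Col14a1, which are common in fibroblasts, averaged 54.7 ± 10.8 and 36.0 ± 7.00 CPM in Pdpn-adjacent (n = 6) and 46.4 ± 7.67 and 37.8 ± 3.06 CPM in SMA-adjacent regions (n = 5). Their log2 fold changes were 0.25 ± 0.16 and -0.05 ± 0.15 SE (edgeR adjusted p = 0.926 and 1.00). The network gene Col8a1, made by vessel walls, averaged 32.6 ± 6.01 against 45.1 ± 7.59 CPM (-0.33 ± 0.17 SE, edgeR adjusted p = 0.860). It stood at -0.64 without region 4 and at -0.19 without region 9. Col7a1, of the anchoring fibrils under stratified epithelium, and Col17a1, of epithelial hemidesmosomes, had log2 fold changes of 0.19 ± 0.16 and 0.14 ± 0.19 SE (edgeR adjusted p = 0.985 and 1.00). Col7a1 stood at 0.34 without region 4 and 0.12 without region 8. Col14a1 turned to 0.24 with limma-voom, and Col17a1 to -0.03 without regions 4 and 8.

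Over the whole family, 0 of 44 members passed the edgeR threshold (adjusted p of 0.05) in either direction, against 0.01% of the 19935 probes tested. All 44 were among the probes tested. DESeq2 and limma-voom also called 0 members, against 0.0853% and 0 of all probes. By exact permutation, 9 members were lower and 1 higher at an unadjusted p under 0.05 (3.89% of all probes were lower and 4.01% higher), and 0 passed after adjustment. At an unadjusted edgeR p under 0.05, 5 members were lower in Pdpn-adjacent regions (Col18a1, Col1a2, Col1a1, Col5a1 and Col4a1; 3.19% of all probes were) and 2 were higher (Col6a6 and Col4a3; 2.84% of all probes were). The median log2 fold change was -0.05 over the 44 members and 0.01 over all probes tested, and 27 members lay below 0, as did 48.8% of all probes. Among the 13 members whose mean over all 11 regions was at least 2 times background, the median was -0.45 and 12 lay below 0. For all 2948 probes past that filter it was -0.08, with 1911 below 0. Their median level in SMA-adjacent regions was lower, at 2.76 times background against 4.60 for the 13. A member can pass this filter through 1 group: Col18a1 and Col6a2 had medians of 3.36 and 2.52 in SMA-adjacent but 1.39 and 1.46 in Pdpn-adjacent regions. The filter thus favours values below 0 for such members. The 31 other members had a median of 0.03. By class, medians were -0.30 for the fibrillar (11), -0.06 for the basement membrane (6), 0.09 for the network (3), -0.06 for the beaded filament (6), -0.04 for the fibril-associated (9) and -0.42 for the multiplexin genes (2). The p-values behind these counts can be too small where mice are shared.

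**Figure D4:**
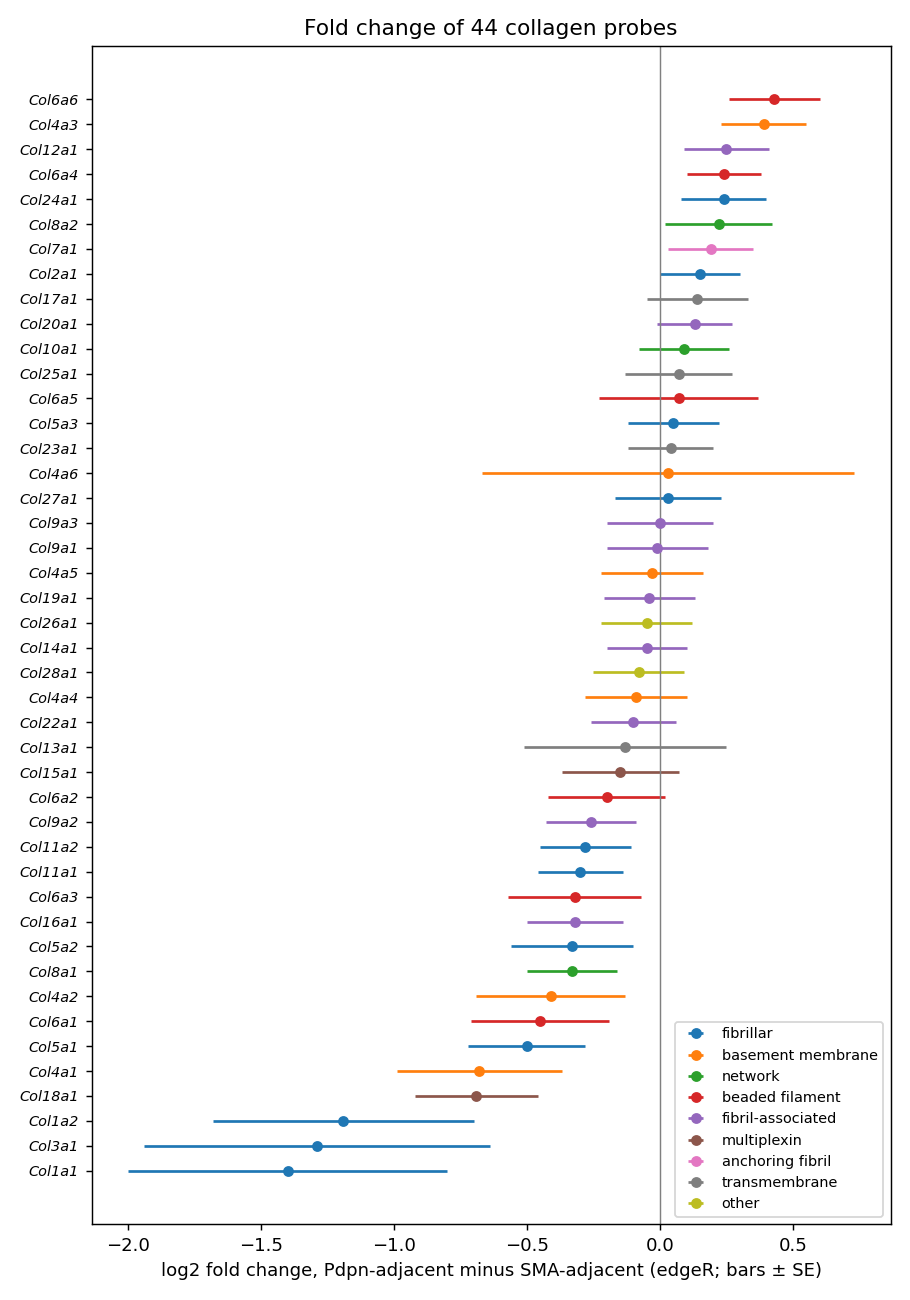
Log2 fold change of each of the 44 collagen probes, Pdpn-adjacent minus SMA-adjacent, from edgeR, coloured by class; bars are ± the SE implied by the test's p. Col1a1, Col3a1 and Col1a2 lie lowest, at -1.40, -1.29 and -1.19, and also carry long bars.

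Complete separation of the groups was seen for 2 of 44 members, against 0.838% of all probes. Only Col16a1, a fibril-associated gene, had all 6 Pdpn-adjacent regions below all 5 SMA-adjacent ones, and 0.391% of all probes did. Its CPM ran from 24.7 to 38.3 against 39.6 to 60.6, close to the negative probes throughout (log2 fold change -0.32 ± 0.18 SE, edgeR adjusted p = 0.919). Only Col6a6 lay wholly above, as did 0.446% of all probes, with 0.43 ± 0.17 SE (edgeR adjusted p = 0.757). Its groups touch: the highest SMA-adjacent and the lowest Pdpn-adjacent value, the latter from a single count, both round to 34.2 CPM. For both genes the exact permutation p was 0.00216, the smallest that the design can give, and 0.610 after adjustment. Neither separation held when counts were divided by background instead; by that measure only Col8a1 lay wholly below, as did 0.446% of all probes. Without region 4 the log2 fold change of Col16a1 was -0.49. SMA-adjacent region 5 was the lowest of its group for Col3a1, Col1a1, Col1a2, Col5a1 and Col16a1. Without it, these 5 of 44 members lay wholly below, against 1.13% of all probes. Without Pdpn-adjacent region 7 the members lying wholly below were Col18a1, Col4a1 and Col16a1, against 0.856%. Without the shallow regions 2, 3 and 11, only Col16a1 lay wholly below (2.01% of all probes did). In that setting Col2a1 and Col6a6 lay wholly above (2.39% of all probes did). Shared mice can make the p-values of Col16a1 and Col6a6 too small.

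The family's share of each library was also lower in 4 of 6 Pdpn-adjacent regions (2, 3, 4 and 11) than in every SMA-adjacent one. The 44 probes held 0.346% to 0.537% of endogenous counts in SMA-adjacent regions, 0.442% ± 0.0700 (SD, n = 5). In Pdpn-adjacent regions they held 0.281% ± 0.0741 (SD, n = 6). Collagens are 0.220% of the probes. The 95% Wilson intervals of regions 2, 3 and 11 (0.155% to 0.275%, 0.170% to 0.231% and 0.200% to 0.314%) contain that value. In regions 2 and 11, 90.0% and 77.6% of all endogenous probes, and 41 and 31 collagens, stood at a count of 1. Values at that lowest count draw a share towards the share of probes, and the intervals treat them as sampled reads. The lower shares of regions 2 and 11 therefore say little about collagen. Region 4, deeper than 3 of the 5 SMA-adjacent regions, held 0.301% (0.294% to 0.308%), below all 5 of them, while region 7 (0.372%) and region 8 (0.354%) exceeded region 5. Regions 4 and 8 had luminal epithelial markers (7) at 3.14 and 3.54 times background, against 1.39 to 1.88 in SMA-adjacent regions. Their part in the collagen share was not tested.

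**Figure D5:**
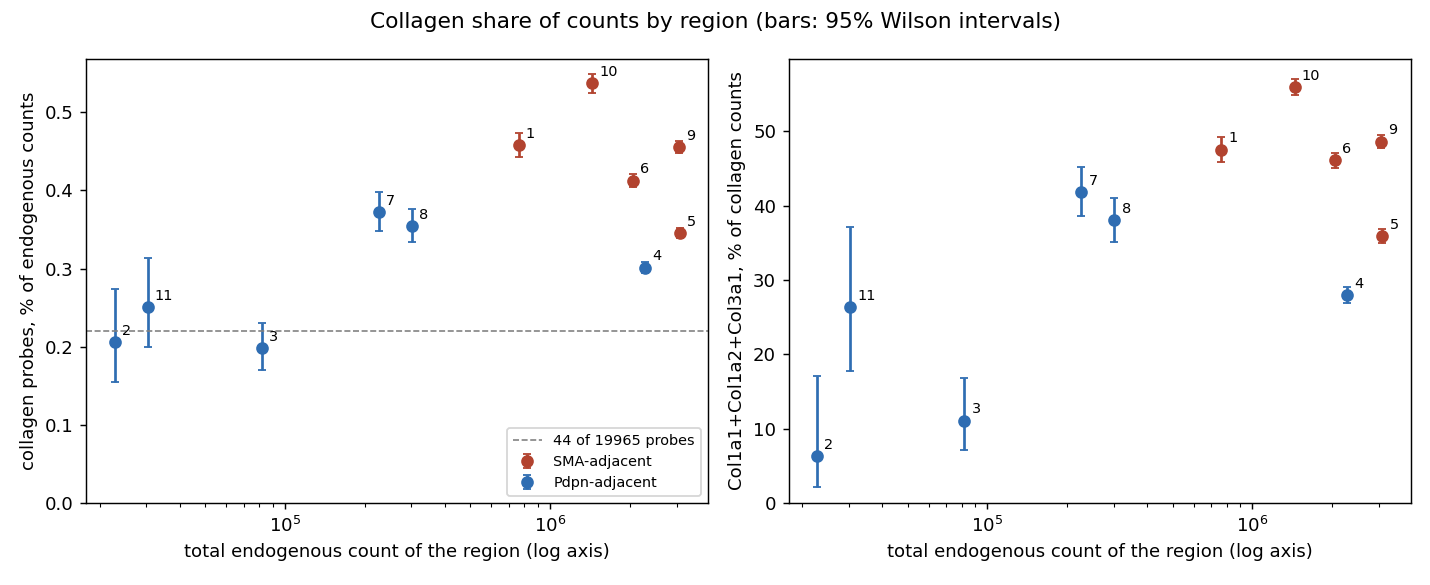
Collagen share of endogenous counts (left) and share of Col1a1, Col1a2 and Col3a1 among collagen counts (right) against the region's total count (log axis), with 95% Wilson intervals; SMA-adjacent in red, Pdpn-adjacent in blue, the dashed line at the share of probes. Region 4 has a low share at a depth like that of SMA-adjacent regions, and regions 2, 3 and 11 lie near the dashed line.

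Genes that make, cut, bind and break collagen were examined alongside, from 4 lists that hold 48 genes, all tested. None passed the edgeR threshold in either direction (0.01% of all probes did). At an unadjusted edgeR p under 0.05, 1 of 18 folding and modification genes was lower, 1 of 12 cleavage and crosslinking genes was higher, 2 of 11 receptors were lower and 1 of 7 breakdown genes was lower. Over all probes 3.19% were lower and 2.84% higher by that rule. Median log2 fold changes were -0.05, -0.05, -0.05 and -0.11. Plod3, a lysyl hydroxylase that also glycosylates collagen, averaged 26.5 ± 12.1 CPM in Pdpn-adjacent (n = 6) and 50.2 ± 7.10 CPM in SMA-adjacent regions (n = 5), with the 2 groups of regions not overlapping. It was the only 1 of the 48 genes to lie wholly below, as 0.391% of all probes did. The log2 difference was -0.77 ± 0.20 SE (edgeR adjusted p = 0.240), and -1.43 without region 4, with edgeR adjusted p = 0.361. The level of Plod3 was 1.16 to 2.00 times background in SMA-adjacent and 0.146 to 1.04 in Pdpn-adjacent regions. In regions 2, 7 and 11 its values (37.5, 4.66 and 34.2 CPM) came from a count of 1, the table's lowest value. Plod1, another lysyl hydroxylase, and P3h3, of the prolyl hydroxylase family, had -0.33 ± 0.18 and 0.32 ± 0.18 SE (edgeR adjusted p = 0.905 and 0.919), and P3h3 stood at 0.56 without region 4.

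Of the cleavage and crosslinking genes, the lysyl oxidase relatives Loxl4 and Loxl1 had log2 fold changes of 0.40 ± 0.15 and -0.31 ± 0.21 SE (edgeR adjusted p = 0.676 and 0.945). Loxl4 turned to -0.04 without regions 4 and 8. Loxl1 stood at -1.11 without region 4 and at -0.13 without region 8. Pcolce2, an enhancer of procollagen cleavage, had -0.34 ± 0.20 SE (edgeR adjusted p = 0.926), and -0.13 without region 4, -0.22 without region 10 and -0.53 without region 8. Of the receptors, Itgb1, the integrin chain shared by the collagen-binding integrins, averaged 79.7 ± 22.1 CPM in Pdpn-adjacent (n = 6) and 136 ± 49.5 CPM in SMA-adjacent regions (n = 5; -0.77 ± 0.27 SE, edgeR adjusted p = 0.647). Ddr2, a receptor kinase for fibrillar collagen, averaged 43.0 ± 20.9 against 71.9 ± 15.6 CPM (-0.60 ± 0.22 SE, edgeR adjusted p = 0.684), and Gp6, the platelet collagen receptor, had 0.32 ± 0.19 SE near background (edgeR adjusted p = 0.926). Without region 4, Gp6 stood at 0.76 and Ddr2 at -0.38, and without region 7 Gp6 stood at 0.21. Of the breakdown genes, Mmp2 and Mmp9, gelatinases, had -0.34 ± 0.25 and -0.44 ± 0.18 SE and the cathepsin Ctsk -0.13 ± 0.21 SE (edgeR adjusted p = 0.953, 0.760 and 1.00), with Ctsk at -0.20 without region 4 and -0.08 without region 1. Shared mice can make the p-values of these lists too small as well.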

How the data were processed

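The authors deposited raw counts per probe for each region, whole numbers with no normalization; this was judged from the values. The lowest value is 1, and the sources used here do not say whether 1 was added or zeros were raised, or how reads became counts. Positions use GRCm38.p6, per the file headers. Of 12 areas mentioned in the labels, 11 were analysed. In the main fit, neither library sizes nor tests used the 210 negative-control probes.

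Probes kept by filterByExpr (19935) were tested with the quasi-likelihood test of edgeR 4.0.16 (R 4.3.3), with TMM factors, two-sided, Benjamini-Hochberg adjusted over all of them. Each SE was derived from the p of the test. Single genes were also tested by exact permutation of log2 CPM (prior count 2) over all 462 splits, adjusted over the same probes. Alternatives used DESeq2 1.42.0, limma 3.58.1 (voom, with and without sample weights), negative-probe scaling, no filter, and fewer regions. Chain ratios after background subtraction were added after seeing the data. The edgeR script was tested on simulated data. Named genes were all members called, separated or at 2 times background, a set of class representatives, and the 3 of smallest p in each related list. The members and lists were chosen with earlier results of these data known.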

Additional observations from a re-analysis of the deposited data

Results flagged for a closer look

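In 52 groups of regions checked, 5 had a region far from the rest, by the gap to its neighbour divided by the group's range; chance gives about 1 in 20.

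Col17a1 was highest in Pdpn-adjacent region 11 (gap share 0.672), at 137 CPM against 23.3 to 42.1 CPM in the other 10 regions. It came from 4 counts, with an exact Poisson interval of 1.09 to 10.2 counts if these are sampled reads with no 1 added. Of the 4 basal epithelial markers, Krt14 also stood highest there, with 19 counts (651 CPM against 12.3 to 46.6 CPM elsewhere). The others were at or near background in region 11: Krt5 and Krt17 with 1 count each (0.889 times background) and Trp63 with 2 counts (1.78 times). The part of epithelial cells in the Col17a1 value was not tested.

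Col4a5 and Col6a6 were highest in Pdpn-adjacent region 3 (gap shares 0.685 and 0.741), from 10 and 6 counts. Their exact Poisson intervals, on the same condition, were 4.80 to 18.4 and 2.20 to 13.1 counts. These genes stood at 123 and 74.0 CPM, and in region 7, the next in skeletal muscle markers, at 32.6 and 41.9 CPM. The part of muscle in these values was not tested.

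Col4a3 was highest in Pdpn-adjacent region 2 (gap share 0.641), from 2 counts, and in SMA-adjacent region 10 (gap share 0.741), from 51 counts at 1.29 times background.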

How the results depend on the processing

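Depth differs between the groups: most Pdpn-adjacent counts come from region 4, and regions 2, 3 and 11 add few. The effect of shared mice was not assessed. No paired analysis was possible because the region numbers in the labels are unique to a region and tie none to a mouse.

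The count of collagen members past the edgeR threshold was 0 in all 19 alternative fits. The count over all probes was 2. When 1 region was left out it ran from 1 to 53, with 53 (41 lower and 12 higher in Pdpn-adjacent regions) without SMA-adjacent region 5 and 13 without Pdpn-adjacent region 7. It was 17 with DESeq2, 0 with limma-voom, 1 with sample quality weights, 1 with negative-probe scaling, 1 without regions 2, 3 and 11, 13 without regions 4 and 8, and 14 without regions 3 and 7. The median log2 fold change of the members (-0.05) ran from -0.10 to -0.03 in the edgeR and DESeq2 fits, and stood at 0.09 with limma-voom and 0.08 with weights, where the median of all probes moved from 0.01 to 0.14 and 0.11. The number of members separating the groups (2) ran from 2 to 6 when 1 region was left out. It was 1 with counts over background and 0 with raw library totals. The members above the floor in Pdpn-adjacent regions fell from 8 to 4 with the floor at 3 SDs.

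Of the 24 named collagens, 17 kept their sign in all 19 fits, among them Col1a1 (-1.84 to -0.90), Col3a1 (-2.09 to -0.70) and Col1a2 (-1.44 to -0.78), each nearest to 0 without regions 2, 3 and 11. The 7 others, all near 0 or near background, changed sign, and the cause was not tested. When 1 region was left out, Col17a1 ran from -0.19 to 0.23, Col4a5 from -0.16 to 0.15, Col14a1 from -0.11 to 0.05, Col4a6 from -0.01 to 0.16, Col5a3 from -0.04 to 0.08, Col4a4 from -0.20 to 0.02 and Col15a1 from -0.32 to 0.02. Without regions 4 and 8, Col17a1 was -0.03, Col5a3 -0.21, Col4a5 0.21, Col4a4 0.17 and the crosslinking gene Loxl4 -0.04. With limma-voom, Col4a5 was 0.20, Col14a1 0.24 and Col15a1 0.06, and with weights 0.06, 0.10 and 0.05. Col4a5 was 0.02 with DESeq2, and Col4a6 was -0.01 without regions 2, 3 and 11.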
